A study of Mus musculus with 6 samples.

Results

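The transcripts of 10 mouse Toll-like receptors (TLRs) were followed in bone marrow-derived macrophages (BMDMs) before and after stimulation with lipopolysaccharide (LPS), with or without an inhibitor of the deubiquitinase USP7. The members were every non-control spot of the arrays whose gene name was Tlr1, Tlr2, Tlr3, Tlr4, Tlr5, Tlr6, Tlr7, Tlr8, Tlr9 or Tlr13. These 10 genes, of 34844 gene names on the array, were read by 14 of 55681 probes. Of them, 7 genes had 1 probe and 3 genes (Tlr4, Tlr7 and Tlr8) had more.

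RNA from 3 groups of cells was hybridised to 6 one-colour Agilent arrays, 2 arrays a group, each from an independent experiment. All groups were macrophages grown from the bone marrow of female wild-type C57BL/6 mice (C57/B6 in the strain label, C57BL6/J in the study's methods) during 7 days of culture with L929-conditioned medium; L929 is a fibroblast line that secretes the macrophage growth factor M-CSF. The labels give the age of the mice as 6 to 8 weeks, while the study's methods name an older range. Untreated cells received neither agent. LPS cells were stimulated for 4 h with LPS at 100 ng/ml by the series description, whereas the treatment label gives 100 ng per microlitre. LPS+USP7i cells received HBX41,108, a small-molecule USP7 inhibitor, at 10 µM for 30 min before the same LPS stimulation. No group received the inhibitor without LPS, and the sources used here do not say whether LPS cells received its solvent. Whether marrow of several mice was pooled is not given in the sources used here.

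TLRs are membrane receptors that recognise conserved parts of microbes and start the transcription of inflammatory genes, largely through NF-κB and interferon regulatory factors. Tlr1, Tlr2, Tlr4, Tlr5 and Tlr6 act mainly at the cell surface, where they bind lipids, lipoproteins and flagellin, while Tlr3, Tlr7, Tlr8, Tlr9 and Tlr13 sit in endosomes and bind nucleic acids. In macrophages Tlr4, with its partner MD-2, is the receptor for LPS, so the stimulus used here acts through a member of the family itself.

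The array reads signal as an intensity, given here on the log2 scale after quantile normalization between arrays. Between 25002 and 27467 of 59305 spots were well above background on an array, and no spot was saturated. The Pearson correlation of the 2 arrays of a group, across 20721 probes well above background on all 6 arrays, was 0.996 in untreated, 0.993 in LPS and 0.991 in LPS+USP7i cells; probes are not independent replicates. All 6 arrays were on 1 slide and read in 1 scan, but each group occupied its own row of the slide, so row and treatment cannot be told apart. The number of arrays limits the precision of every value that follows.

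All 7 macrophage markers examined (Cd68, Adgre1, Csf1r, Itgam, Fcgr1, Mertk and Lyz2) were well above background on all 6 arrays. Their summed normalized signal, to which the Csf1r probe gave the highest mean, was 677000 and 663519 on the untreated arrays, 550028 and 567169 on the LPS arrays, and 563213 and 508767 on the LPS+USP7i arrays. That sum is carried by the brightest genes, and some single markers fell by more than it did. Fcgr1 was lower in LPS+USP7i than in LPS cells (-1.60, adjusted p = 0.0317, limma), and Itgam was lower in LPS than in untreated cells (-0.66, adjusted p = 0.0233). Mertk gave -1.20 between LPS+USP7i and LPS (95% interval -2.14 to -0.26, adjusted p = 0.136, limma) and did not pass.

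Of the markers of other cells, all 5 neutrophil and granulocyte precursor genes were above background on every array. The same held for 1 of 4 B cell genes (Cd79a), 1 of 3 T cell genes (Cd3e), 1 of 4 dendritic cell genes (Siglech), 0 of 3 each for fibroblasts and mast cells, and 0 of 2 for erythroid cells. Cd3g, Flt3, Col1a1, Col3a1 and Fcer1a stayed at background on all 6 arrays.

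The B cell sum was higher on the replicate 1 array of each group, at 238 against 68.8 in untreated, 531 against 125 in LPS and 337 against 108 in LPS+USP7i cells. Pax5 of that list was above background on the LPS+USP7i arrays only, at least 1.39-fold higher than in LPS (adjusted p = 0.0244, limma) and at least 2.07-fold higher than in untreated cells (adjusted p = 0.0105). The neutrophil and granulocyte precursor sum, led by the Elane probe on average, was higher on the replicate 2 arrays, at 5192 against 6794, 5747 against 11093 (11092.5 before rounding) and 6157 against 9424. In each group S100a8, S100a9 and Elane were higher on the replicate 2 array, S100a9 the most, whereas Ly6g and Mpo were higher on the replicate 1 array. The dendritic cell sum, nearly all of it Siglech, was 45052 and 38060 in untreated, 25404 and 24917 in LPS, and 51426 and 34697 in LPS+USP7i cells. Siglech itself did not pass with LPS (-0.73, 95% interval -1.35 to -0.11, adjusted p = 0.122, limma) or between LPS+USP7i and LPS (0.75, 95% interval 0.13 to 1.37, adjusted p = 0.149). Zbtb46 and Ccr9 of the same list were called with LPS, at least 5.65-fold higher (adjusted p = 0.00435, limma) and at least 5.43-fold higher (adjusted p = 0.0224) than in untreated cells, where both were at background. The part of these markers in the receptor results was not tested. In whole cultures, fewer cells of a type and less RNA per cell cannot be told apart.

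The first comparison, LPS against untreated, addresses how the receptors respond to a TLR4 ligand. By limma with an adjusted p under 0.05, and with each gene counted by its brightest probe, 7 of 10 receptor genes differed. Tlr1, Tlr2, Tlr3, Tlr6 and Tlr8 rose, that is 5 of 10 where 7.98% of all 34844 gene names were called higher. Tlr4 and Tlr13 fell, 2 of 10 where 12.8% of all gene names were called lower. Dim genes weigh on those shares: among 15620 gene names above background on all 6 arrays, which 9 of the 10 receptors belonged to, 14.1% were called higher and 23.9% lower. The median log2 difference was 0.85 over those 9 receptors, beside -0.18 over the 15620 gene names. With all probes of a gene averaged, 7 of 10 receptors were again called, with Tlr7 called higher in place of Tlr8. Of the Tlr7 probes taken singly, the 2 bright ones gave 0.03 and 0.02 and were not called. Only the dim A_55_P2129046, at background on both untreated arrays, was called higher.

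The second comparison, LPS+USP7i against LPS, asks what the inhibitor changed in stimulated cells. Here 6 of 10 receptor genes differed in the fit of all 6 arrays, of which 2 (Tlr8 and Tlr13) also passed with replicate number as a block. Tlr1, Tlr2, Tlr3, Tlr7 and Tlr8 were lower, 5 of 10 where 4.28% of all gene names were called lower. Tlr13 was higher, 1 of 10 where 5.51% of all gene names were called higher. Among the 15620 gene names above background on all 6 arrays the shares were 7.44% lower and 9.74% higher. The median difference over the 9 receptors above background was -1.0, beside 0.05 over those gene names. These 6 calls had adjusted p-values from 0.0223 to 0.0493, close to the threshold, and none of Tlr1, Tlr2, Tlr8 and Tlr13 passed once any 1 of the 6 arrays was left out.

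The last comparison, LPS+USP7i against untreated, holds the effects of both agents, which cannot be told apart without cells given the inhibitor alone. Tlr2 was higher, 1 of 10 where 6.15% of all gene names were called higher, and Tlr7 and Tlr13 were lower, 2 of 10 where 8.72% were called lower. Among the gene names above background on all 6 arrays 10.8% were called higher and 16.3% lower, close to the receptors' 1 and 2 of 10. The median difference over the 9 receptors above background was -0.14, beside -0.08 over those gene names. Any 2 of these comparisons share the arrays of 1 group, so they are not independent. With 2 arrays on each side, 0.333 is the smallest two-sided p that exact permutation allows, so the tests reported are those of limma, which borrows its estimate of spread across all probes.

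Scaling matters for the level of all gene names in the 2 comparisons with untreated cells, and for the receptor calls in every comparison. When each array was scaled to its 75th percentile instead of quantile-normalized, the median of all gene names moved by 0.40 (LPS against untreated) and 0.44 (LPS+USP7i against untreated) on the log2 scale. The share of calls that were higher then went from 38.5% to 75% and from 41.4% to 78.4%. Among the receptors the split of higher to lower calls went from 5 and 2 to 5 and 1 in the first comparison, from 1 and 5 to 0 and 4 in the second, and from 1 and 2 to 1 and 3 in the last. Quantile-normalized differences are therefore relative to a common distribution of signal, in which the median of all gene names is held near 0.

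**Figure D1:**
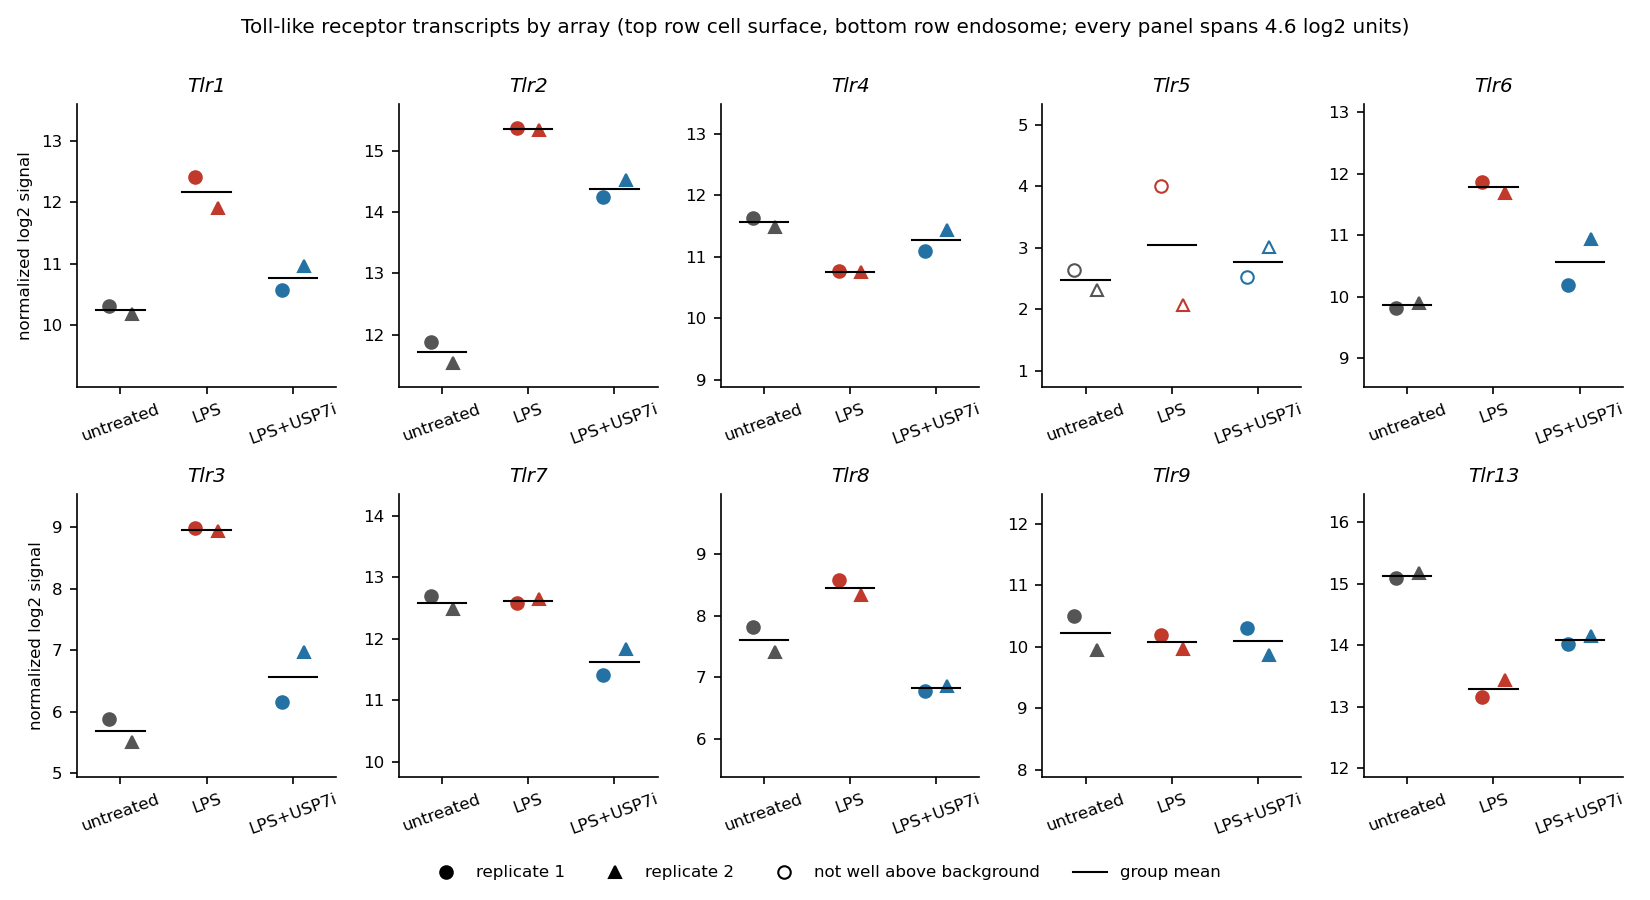
Normalized log2 signal of the brightest probe of each receptor gene on each of the 6 arrays, with the group mean as a bar and open symbols for values at background. Tlr1, Tlr2, Tlr6 and Tlr3 were highest on the LPS arrays, Tlr13 and Tlr4 were lowest there, Tlr7 and Tlr8 were lowest on the LPS+USP7i arrays, and the groups overlapped for Tlr9 and for Tlr5, which stayed under background.

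Tlr2, which binds bacterial lipoproteins together with Tlr1 or Tlr6, was read by probe A_51_P452629 (mm9, chr3:83640344-83640403), printed 10 times on the array. Its normalized log2 signal was 11.88 and 11.55 on the untreated arrays, 15.37 and 15.34 on the LPS arrays, and 14.24 and 14.52 on the LPS+USP7i arrays. The 3 groups did not overlap, and the 10 spots of an array varied by at most 0.10 (SD). With LPS, Tlr2 rose 12.4-fold, a log2 difference of 3.64 ± 0.16 (SE; adjusted p = 0.00310, limma). With the inhibitor it was 6.32-fold above untreated (2.66 ± 0.16, adjusted p = 0.00644). The signal with inhibitor was 1.97-fold lower than with LPS alone (-0.98 ± 0.16, adjusted p = 0.0465). The 2 differences from untreated passed with each of the 14 alternative settings and left-out arrays tried on this probe, whereas the difference between LPS+USP7i and LPS passed with 5 of them.

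Tlr1, a partner of Tlr2 for triacylated lipoproteins, was read by probe A_51_P495581 (mm9, chr5:65316115-65316174). Its log2 signal was 10.31 and 10.18 in untreated, 12.42 and 11.91 in LPS, and 10.57 and 10.97 in LPS+USP7i cells. Both LPS arrays lay above all others, and both LPS+USP7i arrays lay just above the untreated ones. Tlr1 rose 3.77-fold with LPS (1.92 ± 0.24, adjusted p = 0.0139) and was 2.63-fold lower with the inhibitor than with LPS alone (-1.39 ± 0.24, adjusted p = 0.0485). The difference between LPS+USP7i and untreated, 0.52, had a 95% interval of -0.13 to 1.18 (adjusted p = 0.296, limma). The rise with LPS did not pass without untreated replicate 1 or without untreated replicate 2.

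Tlr6, the partner of Tlr2 for diacylated lipoproteins, was read by probe A_52_P117393 (mm9, chr5:65344365-65344424). Its log2 signal was 9.81 and 9.90 in untreated, 11.86 and 11.69 in LPS, and 10.19 and 10.94 in LPS+USP7i cells. The groups did not overlap, although the 2 LPS+USP7i arrays were farther apart (SD 0.53) than those of the other groups (SD 0.07 and 0.12). Tlr6 rose 3.78-fold with LPS (1.92 ± 0.28, adjusted p = 0.0198), a call that did not pass when any of the 4 untreated or LPS arrays was left out. The log2 difference from LPS to LPS+USP7i was -1.21, with a 95% interval of -1.97 to -0.45, and did not pass after adjustment (adjusted p = 0.0864). From untreated to LPS+USP7i it was 0.71 (95% interval -0.05 to 1.47, adjusted p = 0.227).

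Tlr4, the LPS receptor, was read by 2 probes. A_66_P124806 (mm9, chr4:66503470-66503529), printed in 2 spots, gave log2 signals of 11.63 and 11.49 in untreated, 10.78 and 10.74 in LPS, and 11.10 and 11.44 in LPS+USP7i cells. The LPS arrays were the lowest, the untreated arrays the highest, and the LPS+USP7i arrays lay between them without overlap. Tlr4 fell by 0.80 ± 0.14 with LPS, that is 1.74-fold (adjusted p = 0.0305, limma). This call did not pass with 75th percentile scaling (log2 difference -0.61), nor without any 1 of the untreated or LPS arrays. The difference between LPS+USP7i and LPS, 0.51, did not pass (95% interval 0.13 to 0.89, adjusted p = 0.124), nor did that between LPS+USP7i and untreated (-0.29, 95% interval -0.67 to 0.09, adjusted p = 0.322). The other probe, A_55_P2076390 (mm9, chr4:66590077-66590136), stayed at background on all 6 arrays.

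Tlr5, the flagellin receptor, was read by probe A_55_P2131428 (mm9, chr1:184906031-184906090), which stayed at background on all 6 arrays. Its log2 signal lay between 2.08 and 4.00, both of them on LPS arrays, so the groups overlapped. No fold is given where both sides are under background.

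Tlr1, Tlr2, Tlr6 and Tlr3, described next, each rose by more than 1 log2 unit with LPS, and the 250 bases before their RefSeq transcription starts (GRCm38.p6) are shown for that reason. The promoter table held 8 of the 10 members, with Tlr4 and Tlr7 missing, and gave 2 starts each for Tlr1 and Tlr6. Searched on both strands were a κB motif (GGGNNNNNCC), an interferon response motif (GAAANNGAAA) and an AP-1 motif (TGANTCA), which were found in 45.8%, 2.98% and 6.75% of 32851 upstream stretches of the same length. Capitals mark matches, and neighbouring matches of a motif can overlap. Every stretch is written 5′ to 3′ on the minus strand, and each lies at least partly within the full RefSeq span of its gene. Tlr2 lies at chr3:83841609-83841858, Tlr1 at chr5:64932700-64932949 and chr5:64933559-64933808, Tlr6 at chr5:64959167-64959416 and chr5:64960049-64960298, and Tlr3 at chr8:45410381-45410630.
Tlr2: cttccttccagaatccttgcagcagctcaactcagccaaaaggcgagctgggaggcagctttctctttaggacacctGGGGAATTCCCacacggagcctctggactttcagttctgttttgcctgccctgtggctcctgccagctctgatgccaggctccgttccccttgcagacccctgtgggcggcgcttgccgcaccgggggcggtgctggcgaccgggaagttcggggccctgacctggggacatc
Tlr1 start 1: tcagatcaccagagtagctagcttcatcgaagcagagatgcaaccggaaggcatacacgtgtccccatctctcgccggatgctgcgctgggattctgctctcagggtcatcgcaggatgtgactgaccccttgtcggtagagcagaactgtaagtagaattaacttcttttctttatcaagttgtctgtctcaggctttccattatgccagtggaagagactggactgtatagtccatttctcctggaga
Tlr1 start 2: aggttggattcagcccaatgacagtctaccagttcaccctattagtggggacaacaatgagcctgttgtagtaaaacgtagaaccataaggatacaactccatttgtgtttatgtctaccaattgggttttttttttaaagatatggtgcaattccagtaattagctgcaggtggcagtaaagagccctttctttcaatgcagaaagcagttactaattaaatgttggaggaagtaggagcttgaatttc
Tlr6 start 1: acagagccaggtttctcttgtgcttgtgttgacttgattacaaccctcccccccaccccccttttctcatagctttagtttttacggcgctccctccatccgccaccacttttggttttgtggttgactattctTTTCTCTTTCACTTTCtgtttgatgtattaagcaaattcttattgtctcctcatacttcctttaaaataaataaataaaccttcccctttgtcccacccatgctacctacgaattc
Tlr6 start 2: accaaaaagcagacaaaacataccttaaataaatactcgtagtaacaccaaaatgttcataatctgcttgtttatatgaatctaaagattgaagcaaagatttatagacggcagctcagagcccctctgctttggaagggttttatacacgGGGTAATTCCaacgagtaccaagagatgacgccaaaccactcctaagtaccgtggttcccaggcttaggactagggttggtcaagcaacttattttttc
Tlr3: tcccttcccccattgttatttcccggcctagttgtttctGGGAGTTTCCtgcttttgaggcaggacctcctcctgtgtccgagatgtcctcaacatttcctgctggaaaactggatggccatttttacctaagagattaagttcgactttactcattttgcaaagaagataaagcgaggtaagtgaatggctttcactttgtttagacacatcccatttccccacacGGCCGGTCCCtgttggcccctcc

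Upstream of Tlr2 there were 2 overlapping κB matches, GGGGAATTCC and GGGAATTCCC, from 173 to 163 bases before the start. Upstream of Tlr3 there were 2 separate κB matches, GGGAGTTTCC and GGCCGGTCCC, and upstream of the start 2 of Tlr6 there was 1, GGGTAATTCC. The start 1 of Tlr6 had 2 overlapping interferon response matches, TTTCTCTTTC and TTTCACTTTC, the farther of them beginning 116 bases before it. Neither start of Tlr1 had a match to any of the 3 motifs in its window. A match describes the letters only and was not tested as a binding site. For comparison, the window of Tlr13, which fell with LPS, had no match to the 3 motifs, Tlr5 had 1 κB match, Tlr9 had 1 AP-1 match and Tlr8, which also rose with LPS, had none.

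Tlr3, the endosomal receptor for double-stranded RNA, was read by probe A_52_P85174 (mm9, chr8:46481729-46481788). Its log2 signal was 5.88 and 5.50 in untreated, 8.98 and 8.93 in LPS, and 6.15 and 6.98 in LPS+USP7i cells. The LPS arrays stood apart from all others, and the LPS+USP7i arrays lay above the untreated ones. Tlr3 rose 9.62-fold with LPS (3.27 ± 0.32, adjusted p = 0.00887) and was 5.25-fold lower with the inhibitor than with LPS alone (-2.39 ± 0.32, adjusted p = 0.0319). The difference between LPS+USP7i and untreated was 0.87 (95% interval -0.02 to 1.77, adjusted p = 0.206, limma). The rise with LPS did not pass without untreated replicate 2 or without LPS replicate 1, while the lower signal with inhibitor passed in 1 of the 6 fits with an array left out, that without LPS+USP7i replicate 2.

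For the 4 genes that rose by more than 1 log2 unit with LPS, the fold over untreated can be set beside that with the inhibitor present. It was 12.4 against 6.32 for Tlr2, so that 73.2% of the log2 rise was kept. It was 3.78 against 1.63 for Tlr6, with 36.9% kept. It was 3.77 against 1.44 for Tlr1 and 9.62 against 1.83 for Tlr3, with 27.3% and 26.7% kept. The shares moved with single LPS+USP7i arrays: without replicate 2 and without replicate 1 of that group they were 16.9% and 37.7% for Tlr1, 14.1% and 39.3% for Tlr3, and 17.4% and 56.3% for Tlr6. For Tlr2 they were 69.3% and 77.0%. Whether these shares differ between the genes was not tested.

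Tlr7, an endosomal receptor for single-stranded RNA, was read by 3 probes, which are shown by their first 30 of 60 bases because they did not give the same pattern.
A_55_P2050932: tctctctctctgatactgaactgtaccaga
A_55_P2129047: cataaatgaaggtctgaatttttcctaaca
A_55_P2129046: atgtaatgctgcttctgtatcttaaaaact
In mm9 the first lies at chrX:163742863-163742922, the second at chrX:163743146-163743205 and the last at chrX:163747214-163747273. The files do not say which exon each probe reads.

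Probe A_55_P2050932 gave log2 signals of 12.69 and 12.49 in untreated, 12.59 and 12.66 in LPS, and 11.42 and 11.83 in LPS+USP7i cells. Untreated and LPS arrays overlapped, and both LPS+USP7i arrays were below them. Tlr7 on this probe was 2.0-fold lower in LPS+USP7i than in LPS cells (-1.0 ± 0.17, adjusted p = 0.0493) and 1.96-fold lower than in untreated cells (-0.97 ± 0.17, adjusted p = 0.0399). Each of these 2 calls passed with 6 of 14 alternatives, and neither did on the deposited values. LPS against untreated gave 0.03 (95% interval -0.44 to 0.50, adjusted p = 0.98, limma), and the sign of this small difference turned without untreated replicate 2 or without LPS replicate 2.

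Probe A_55_P2129047 gave 12.61 and 12.62 in untreated, 12.52 and 12.74 in LPS, and 11.23 and 11.68 in LPS+USP7i cells. The order was that of the first probe. The signal with inhibitor was 2.25-fold lower than in LPS cells (-1.17 ± 0.18, adjusted p = 0.0417) and 2.23-fold lower than in untreated cells (-1.15 ± 0.18, adjusted p = 0.0317). Both calls on this probe passed with 8 of 14 alternatives. LPS against untreated gave 0.02 (95% interval -0.49 to 0.52), a sign that turned without LPS replicate 2.

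Probe A_55_P2129046 gave 3.81 and 2.93 in untreated, 5.69 and 5.38 in LPS, and 2.06 and 2.05 in LPS+USP7i cells. It was well above background only on the LPS arrays, so that its other values are bounds. Its signal was at least 3.08-fold higher in LPS than in untreated cells (adjusted p = 0.0232, limma) and at least 2.39-fold lower in LPS+USP7i than in LPS cells (adjusted p = 0.0192). These bounds set the bright group's mean against the higher of 2 values on each dim array: the probe's own, and the smallest value called above background there. The 2 calls passed with 9 and 7 of 14 alternatives. The smallest log2 differences among those alternatives were 0.58 and -0.77, so the bounds hold for the main processing only. This is the 1 probe of Tlr7 called higher with LPS, where the other 2 probes of the gene overlapped between untreated and LPS.

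Tlr8, the neighbour of Tlr7 on the X chromosome, was read by 2 probes, shown likewise by their first 30 of 60 bases.
A_55_P1996271: tgatgggaagtcacgactctgccatcataa
A_55_P1996266: acagttttactgctggaagacaaccagtta
They lie at chrX:163680626-163680685 and chrX:163683356-163683415 in mm9. Probe A_55_P1996271, by which the gene was counted, gave log2 signals of 7.81 and 7.41 in untreated, 8.58 and 8.34 in LPS, and 6.78 and 6.85 in LPS+USP7i cells. The 3 groups did not overlap, with LPS highest and LPS+USP7i lowest. On this probe Tlr8 rose 1.80-fold with LPS (0.85 ± 0.18, adjusted p = 0.0474) and was 3.12-fold lower with the inhibitor than with LPS alone (-1.64 ± 0.18, adjusted p = 0.0223). LPS+USP7i against untreated gave -0.79 (95% interval -1.28 to -0.30, adjusted p = 0.0692, limma). The rise with LPS did not pass in any of the 6 fits with an array left out, nor on the deposited values.

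Probe A_55_P1996266 gave 7.85 and 7.44 in untreated, 8.07 and 7.26 in LPS, and 5.95 and 6.06 in LPS+USP7i cells. Untreated and LPS arrays overlapped, and both LPS+USP7i arrays were lower. LPS+USP7i against LPS gave -1.66 (95% interval -2.56 to -0.76, adjusted p = 0.0648, limma) and LPS+USP7i against untreated gave -1.64 (95% interval -2.54 to -0.73, adjusted p = 0.0534), neither of which passed. The difference from untreated did pass with 8 of 14 alternatives. LPS against untreated gave 0.02 (95% interval -0.88 to 0.92), with the sign turned without untreated replicate 2 or without LPS replicate 1. The 2 probes of Tlr8 thus shared their lowest group, LPS+USP7i, but only A_55_P1996271 was called higher with LPS.

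**Figure D2:**
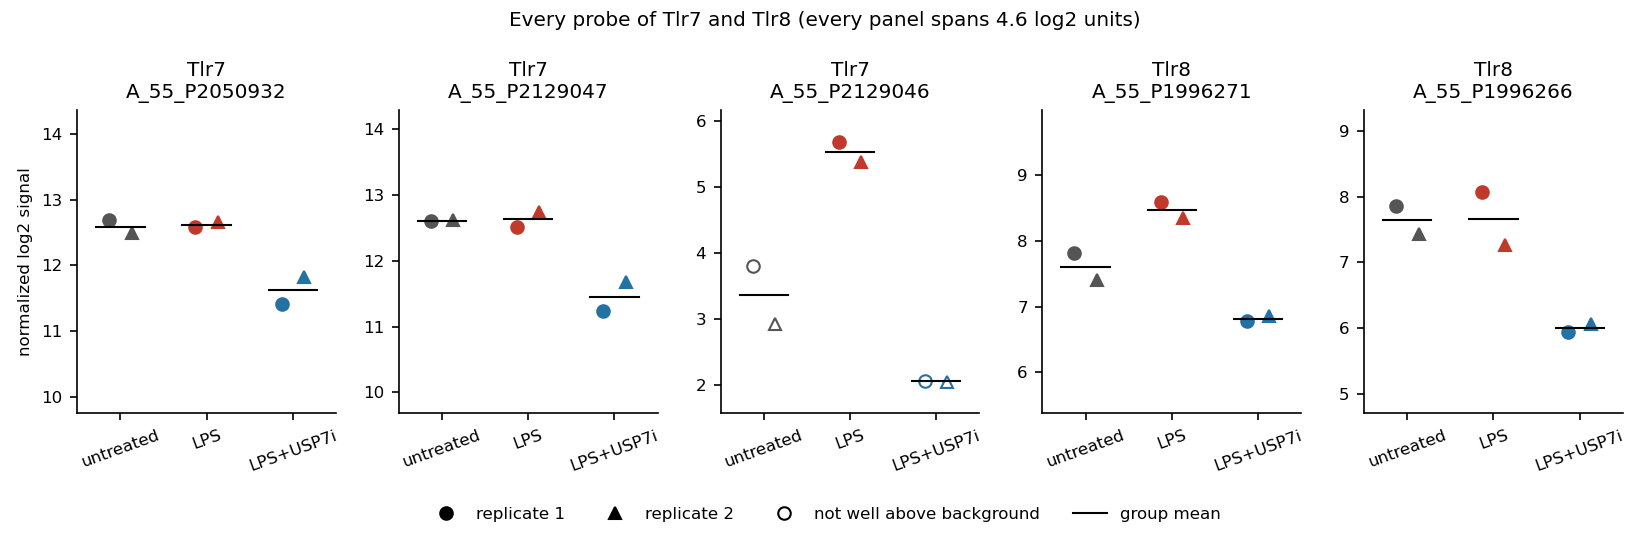
Normalized log2 signal of each of the 3 probes of Tlr7 and the 2 probes of Tlr8 on the 6 arrays, with open symbols for values at background and a bar at each group mean. The 4 probes above background on all arrays were lowest on the LPS+USP7i arrays, while LPS lay clear of untreated on A_55_P2129046 and A_55_P1996271 only; levels are not comparable between probes.

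Tlr9, the receptor for unmethylated CpG DNA, was read by probe A_51_P432563 (mm9, chr9:106128979-106129038). Its log2 signal was 10.51 and 9.94 in untreated, 10.19 and 9.97 in LPS, and 10.31 and 9.87 in LPS+USP7i cells. All 3 groups overlapped, and in each group the replicate 1 array was the higher. LPS against untreated gave -0.14 (95% interval -0.89 to 0.60), LPS+USP7i against LPS 0.01 (-0.73 to 0.75) and LPS+USP7i against untreated -0.14 (-0.88 to 0.61). The adjusted p-values were 0.852, over 0.99 and 0.882 (limma). Across the comparisons these intervals reach from a fall of 0.89 to a rise of 0.75, and the sign of each difference turned under some setting or left-out array.

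Tlr13, an endosomal receptor for bacterial ribosomal RNA, was read by probe A_55_P2048279 (mm9, chrX:103355773-103355832). Its log2 signal was 15.09 and 15.17 in untreated, 13.15 and 13.43 in LPS, and 14.01 and 14.15 in LPS+USP7i cells. The 3 groups did not overlap, in the order untreated, LPS+USP7i, LPS. Tlr13 fell 3.59-fold with LPS (-1.84 ± 0.12, adjusted p = 0.00476), a call kept with each of the 14 alternative settings and left-out arrays. It was 1.73-fold higher with the inhibitor than with LPS alone (0.79 ± 0.12, adjusted p = 0.0417) and still 2.07-fold lower than in untreated cells (-1.05 ± 0.12, adjusted p = 0.0174). The higher signal with inhibitor did not pass with 75th percentile scaling (0.60), on the deposited values or with any 1 array left out.

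**Figure D3:**
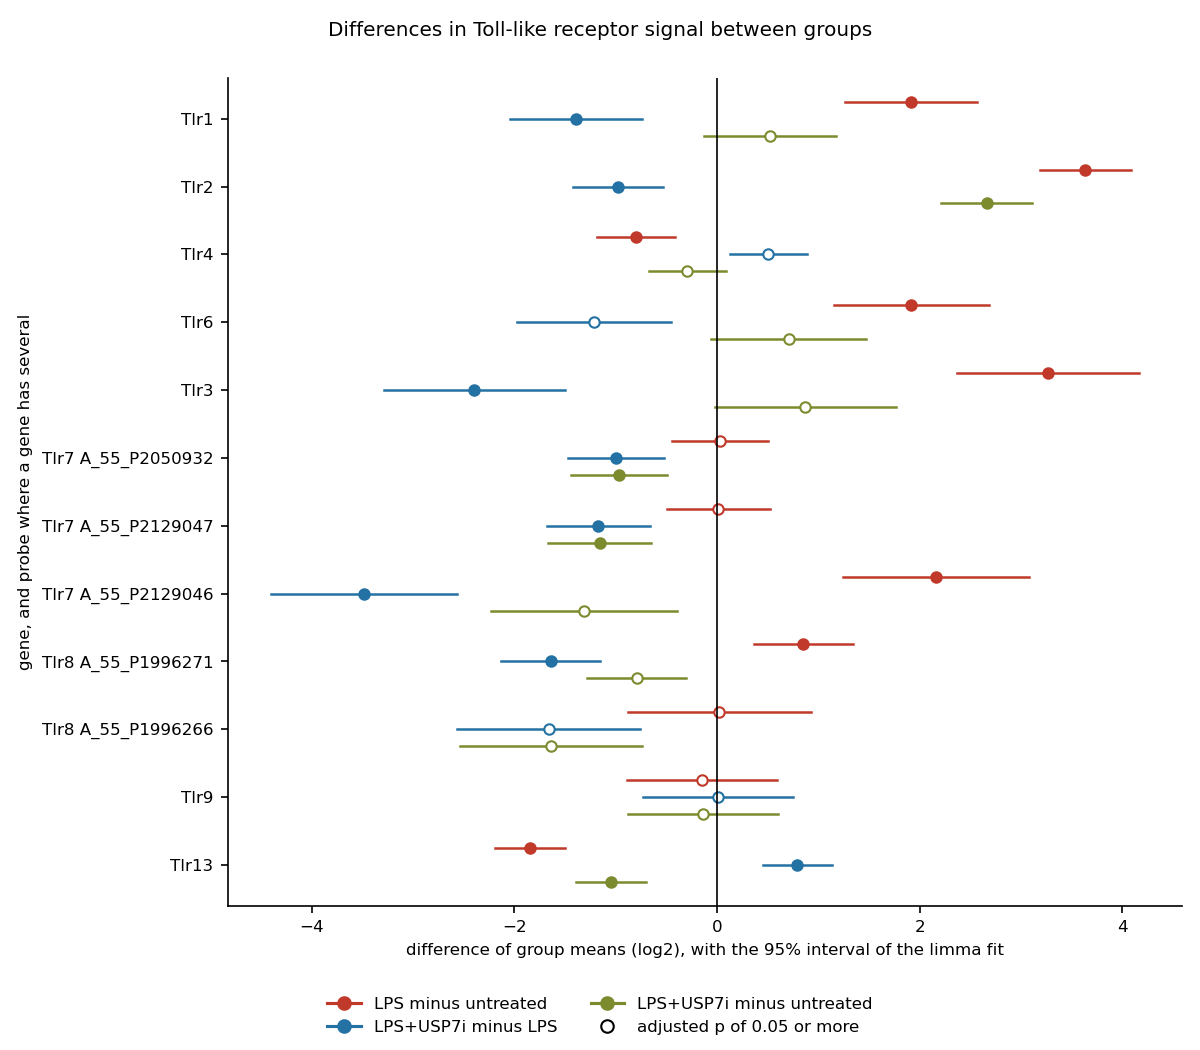
Difference of group means on the log2 scale with its 95% interval from limma, for the 12 probes well above background on at least 1 array, in the 3 comparisons; filled points have an adjusted p under 0.05. LPS raised Tlr2, Tlr3, Tlr1 and Tlr6 by 1.92 or more, all receptor differences between LPS+USP7i and LPS were below 0 apart from Tlr4, Tlr9 and Tlr13, and the points of Tlr7 A_55_P2129046 rest on values under background in the other groups.

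Members that neighbour each other in the genome can be set side by side. No RefSeq gene lies between Tlr1 and Tlr6 on chromosome 5 or between Tlr7 and Tlr8 on the X chromosome (GRCm38.p6). Tlr1 and Tlr6 both rose with LPS, by 1.92 each, and differed by -1.39 and -1.21 between LPS+USP7i and LPS, the first called and the second not. Tlr7 and Tlr8, by their brightest probes, differed by -1.0 and -1.64 between LPS+USP7i and LPS, both called, and by 0.03 and 0.85 between LPS and untreated, of which the second was called. Whether the members of a pair differ from each other was not tested.

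By place in the cell, Tlr1, Tlr2 and Tlr6 rose with LPS and Tlr4 fell among the 5 surface receptors, and Tlr3 and Tlr8 rose and Tlr13 fell among the 5 endosomal ones. Between LPS+USP7i and LPS, Tlr1 and Tlr2 were lower among the surface receptors. Among the endosomal receptors, Tlr3, Tlr7 and Tlr8 were lower and Tlr13 was higher.

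The genes most like each receptor were found by the Euclidean distance between the 3 group means, each centred on its own mean, among 11547 other genes above background on all 6 arrays, those of the 15620 gene names there that could be given a RefSeq gene name. The nearest to Tlr1 was Mtdh (distance 0.02), followed by Ppp2r1b and Ccdc50. The nearest to Tlr2 was Tnfaip2 (0.14), followed by Slfn3 and Pakap. The nearest to Tlr6 was Tmem39a (0.03), followed by Ctsc and Dhx58. These rest on 3 group means of 2 arrays each, so many genes lie close together. The nearest to Tlr3 were Tcstv3 (0.05), C3 and Cd83, and those to Tlr4 were Tbc1d8b (0.01), Csf2rb2 and Nxt1. The nearest to Tlr7 were Tcof1 (0.01), Plcb4 and Cabin1, and those to Tlr8 were Tal1 (0.03), Cd300e and Stat5b. The nearest to Tlr13 were Tbccd1 (0.02), Hs1bp3 and Nlrp1c-ps, and those to Tlr9, which differed in no comparison, were Gfm1, Mrpl21 and Tor1b.

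The partners of the receptors were examined in 5 lists of textbook genes, 35 in all: accessory molecules, folding and trafficking proteins, adaptors, kinases and ubiquitin ligases, and inhibitors. With LPS, 11 of the 35 rose (31.4%, beside 7.98% of all gene names and 14.1% of those above background) and 6 fell (17.1%, beside 12.8% and 23.9%), with a median difference of 0.02. In the second comparison 2 were higher (5.71%, beside 5.51% and 9.74%) and 7 lower (20%, beside 4.28% and 7.44%), with a median of 0.01. The shares of falls with LPS and of higher calls in the second comparison were thus near the background. With 75th percentile scaling the split with LPS was 14 higher and 3 lower. With dim probes left out, 15 of the 35 had an unadjusted p under 0.05 (limma) in the second comparison, near the 40.9% of 18343 gene names. As for the receptors, most calls of the second comparison depended on single arrays: without untreated replicate 1 or 2 there was 0 of 35 in place of 9 (16 at an unadjusted p under 0.05, as for 23.0% of all gene names), without LPS replicate 1 or 2 there was 1, Traf3, and without either LPS+USP7i array there were 6. The counts for LPS against untreated went from 17 to 8 and 9 without untreated replicate 1 and 2, to 9 and 10 without LPS replicate 1 and 2, and to 11 on the deposited values.

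Of the 6 accessory molecules, which present ligands to the receptors, 2 rose with LPS. Cd14, the co-receptor that hands LPS to Tlr4, rose by 1.69 ± 0.12 (adjusted p = 0.00518, limma) and was 1.31 lower with the inhibitor than with LPS alone (-1.31 ± 0.12, adjusted p = 0.0184). Cd180 rose by 0.80 (adjusted p = 0.0493), a call that passed with 6 of 14 alternatives. Ly96, which encodes the MD-2 partner of Tlr4, gave 0.52 with LPS (95% interval 0.21 to 0.83, adjusted p = 0.0517) and did not pass. Of the 8 folding, trafficking and processing genes, Hsp90b1, the chaperone of most TLRs, and Slc15a4, a transporter of endolysosomes, fell with LPS by 0.62 and 1.18. With 75th percentile scaling these falls were 0.05 and 0.57, and neither passed. None of the 8 was called between LPS+USP7i and LPS, among them Unc93b1, which carries the endosomal receptors to their place (-0.29, 95% interval -0.76 to 0.18, adjusted p = 0.470, limma).

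Of the 5 adaptors, which link the receptors to kinases, 3 rose with LPS. Myd88, used by nearly all TLRs, rose by 2.0 ± 0.18 (adjusted p = 0.00734) and was lower with the inhibitor than with LPS alone (-1.05 ± 0.18, adjusted p = 0.0499). Ticam2, which couples Tlr4 to Ticam1, rose by 1.65 and was well above background on no LPS+USP7i array, at least 7.87-fold lower than with LPS alone (adjusted p = 0.0183, limma). The smallest log2 difference of Ticam2 between LPS+USP7i and LPS among the alternatives was -1.54, so this bound holds for the main processing only. Tirap rose by 0.58 (adjusted p = 0.0266). Sarm1 stayed at background on all 6 arrays.

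Of the 11 kinases and ubiquitin ligases, 4 rose with LPS and 3 fell. The falls of Irak1 and Traf3 passed with 4 of 14 alternatives each, that of Tab1 with all 14. Further probes of Irak1, A_55_P2153862 and A_52_P149835, gave -0.37 and -0.49 with LPS and did not pass (adjusted p = 0.0946 and 0.0931, limma). Ikbke, a kinase of interferon regulatory factors, rose by 2.61 and Irak2, a kinase that binds Myd88 complexes, by 1.43. A further probe of Irak2, A_55_P2082974, gave 2.81 with LPS (adjusted p = 0.00319, limma) and -1.09 between LPS+USP7i and LPS (adjusted p = 0.0266). Tab2, a partner of the kinase Map3k7, rose by 1.44, whereas Tab1, another partner of it, fell by 2.11. Between LPS+USP7i and LPS, Ikbke (-1.64), Tab2 (-1.12) and Irak2 (-0.93) were lower, with adjusted p-values of 0.0289, 0.0232 and 0.0365 (limma). Traf3, a ubiquitin ligase, was higher by 1.49 ± 0.10 (adjusted p = 0.0126).

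Of the 5 inhibitors, Tnfaip3 (A20), a ubiquitin-editing enzyme, rose by 4.89 with LPS, Irak3 rose by 1.80 and Sigirr fell by 0.94. Between LPS+USP7i and LPS, Irak3 was lower (-1.83 ± 0.21, adjusted p = 0.0249) and Tollip was higher (1.61 ± 0.17, adjusted p = 0.0213, limma). Of the 2 further probes of Tollip, A_55_P2133047 passed (1.87, adjusted p = 0.0152) and A_55_P2176492 did not (1.11, 95% interval 0.52 to 1.70, adjusted p = 0.0615). Across the 9 pathway genes called between LPS+USP7i and LPS, the calls passed with 11 (Traf3), 9 (Cd14, Ticam2, Tollip), 8 (Tab2, Irak3), 7 (Ikbke) and 6 (Myd88, Irak2) of 14 alternatives. Of the rises and falls named with LPS, Tirap, Ticam2 and Hsp90b1 passed with 9, and Slc15a4 and Irak3 with 10. The other mouse receptors of the family were dim: Tlr12 stayed at background throughout, and Tlr11 rose clear of it on 1 untreated array only. As a check of the stimulus, Tnf rose by 7.61 and Il6 by 11.86 with LPS. Tnf was lower with the inhibitor than with LPS alone (-0.78, adjusted p = 0.0382), a call that passed with 5 of 14 alternatives and in no fit with an array left out, and Il6 (-2.55, 95% interval -4.13 to -0.98, adjusted p = 0.0831, limma) did not pass.

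**Figure D4:**
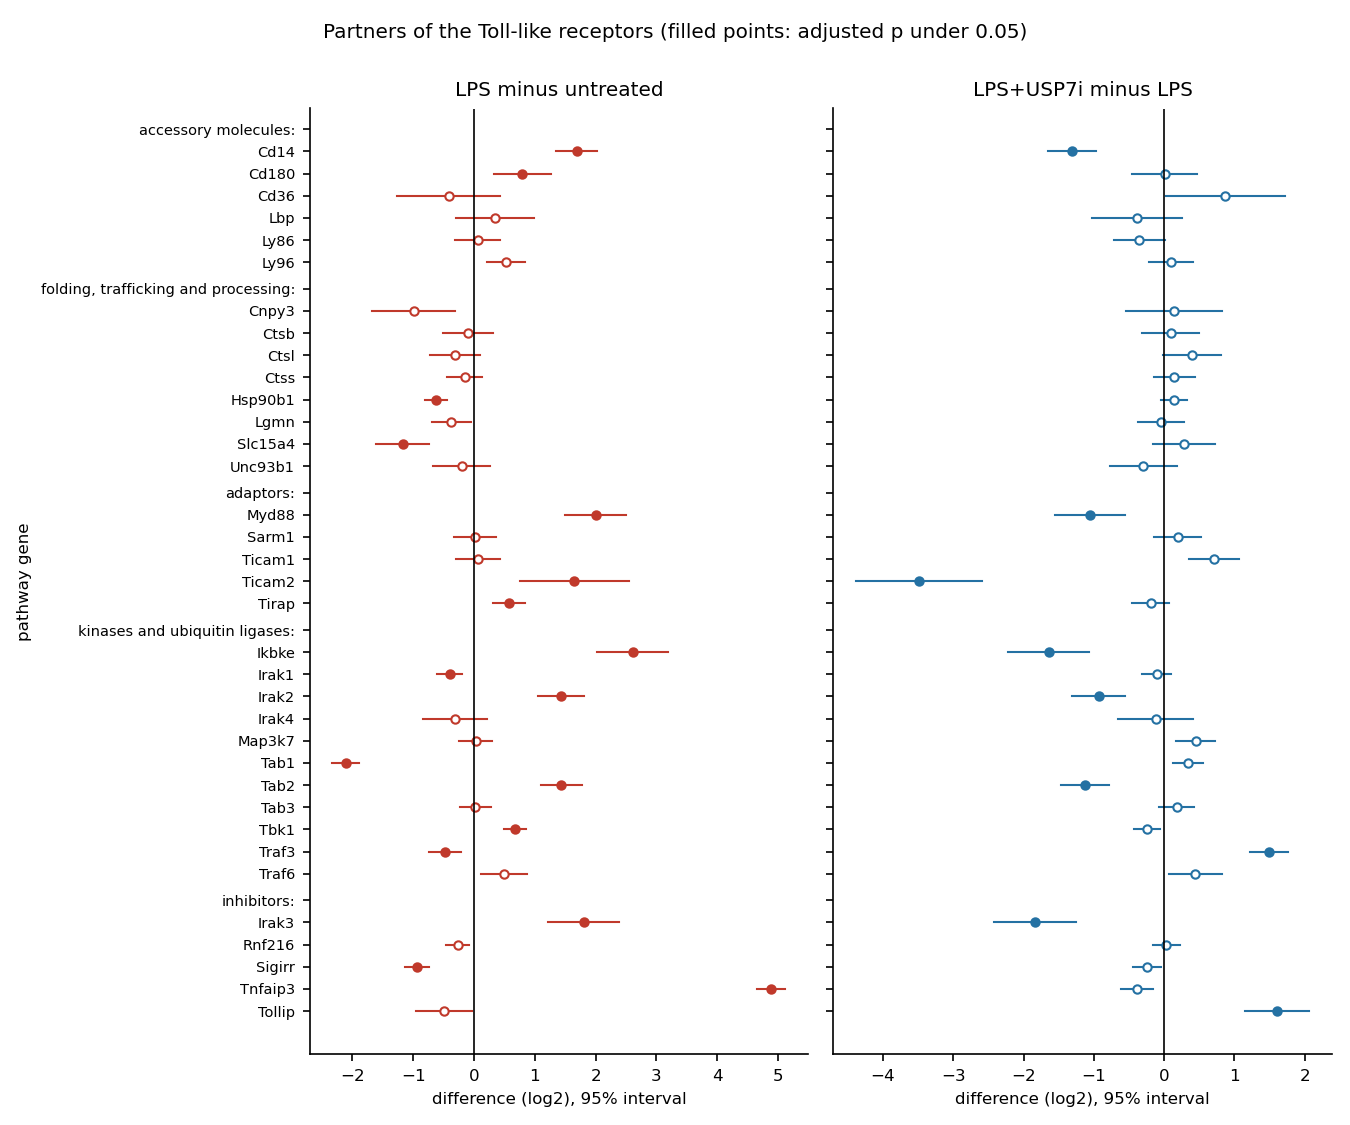
Log2 difference with its 95% interval from limma for 35 partners of the receptors in 5 lists, LPS minus untreated on the left and LPS+USP7i minus LPS on the right; filled points have an adjusted p under 0.05. With LPS 11 were called higher and 6 lower, and between LPS+USP7i and LPS 2 were called higher and 7 lower, with Ticam2 bounded by background in the LPS+USP7i group and Sarm1 under background throughout.

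How far the calls on the receptors rest on single arrays was examined by leaving out each in turn, where the lone array of a group is assumed to vary like the others. For LPS against untreated, the count of 7 became 3 and 2 without untreated replicate 1 and 2, and 3 and 4 without LPS replicate 1 and 2. It was 6 without either LPS+USP7i array. Tlr2 and Tlr13 were called in all 6 of these fits, Tlr8 in none.

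For LPS+USP7i against LPS, the count of 6 became 0 without untreated replicate 1, untreated replicate 2, LPS replicate 1, LPS replicate 2 or LPS+USP7i replicate 1. It became 3 (Tlr3, Tlr6 and Tlr7) without LPS+USP7i replicate 2. In limma fitted to the 4 arrays of these 2 groups alone it was 0, and none of the 34844 gene names passed there. A lone untreated array adds nothing to the estimate of spread, so the fits without 1 untreated array equal that fit and are not separate checks. The same holds in the other comparisons for the arrays of the group not compared. At an unadjusted p under 0.05, 8 of the 10 receptors passed in that fit and in each fit with an array left out, except 6 without LPS replicate 1. Of all gene names, between 23.0% and 26.7% passed that threshold in these fits. Dim genes weigh on that share. With dim probes left out of the fit of all 6 arrays, 8 receptors passed the unadjusted threshold, beside 40.9% of 18343 gene names. The direction of all 6 called receptors was the same under every setting and left-out array tried.

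For LPS+USP7i against untreated, the count of 3 became 1 without untreated replicate 1 or 2 and 2 without any of the other arrays. Tlr2 was called each time. Tlr13 was called without either LPS array, and Tlr7 only without LPS+USP7i replicate 2, while Tlr6 was called without LPS+USP7i replicate 1.

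**Figure D5:**
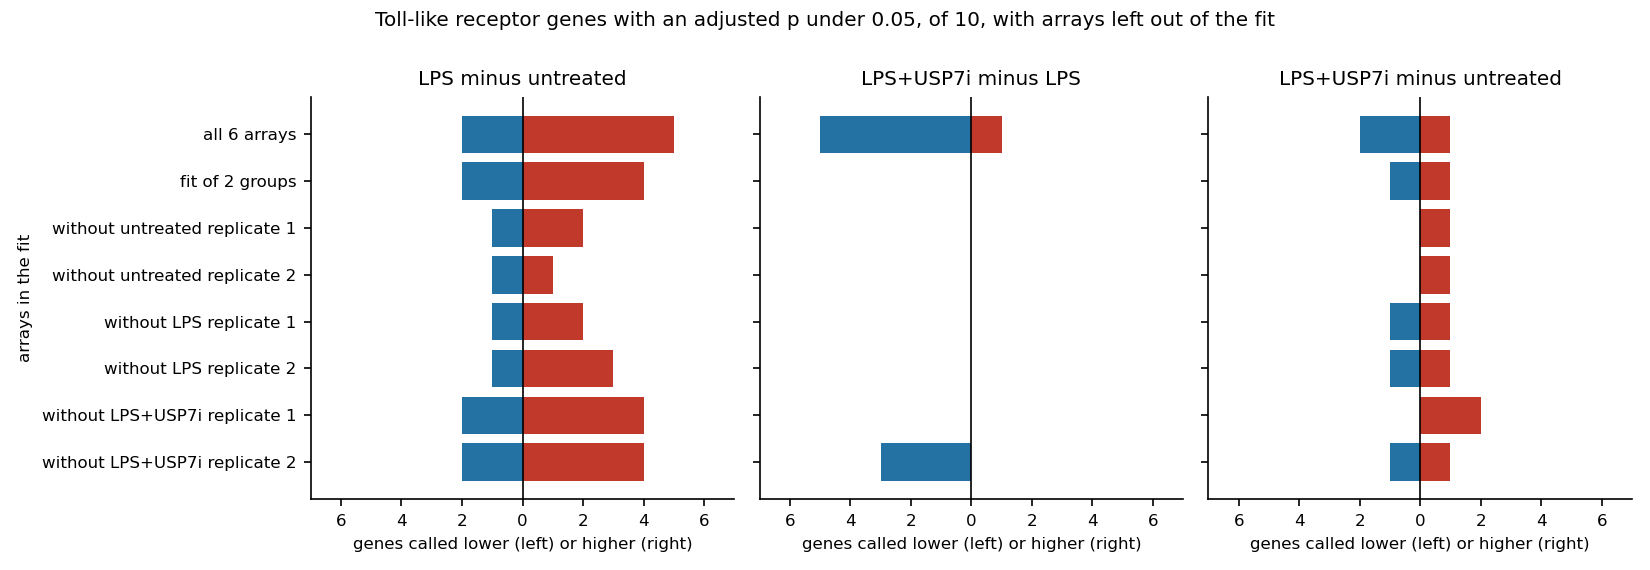
Number of the 10 receptor genes called lower (left of 0) or higher (right of 0) by limma with all 6 arrays, with the 4 arrays of the compared groups, and with each array left out. In the middle panel the 5 lower and 1 higher calls of LPS+USP7i against LPS were 0 in all reduced fits but 1, which had 3 lower.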

How the data were processed

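Values came from Agilent Feature Extraction files (version 10.7.3.1, mm9 coordinates). Per the file headers, the processed signal is a background-subtracted intensity, and a spot is well above background, an outlier or saturated by the scanner software's flags. A series table of log2 values, also deposited by the authors, followed the median spot signal (r from 0.988 to 0.995 per array), with medians of 5.07, 5.10, 5.09, 5.09, 5.10 and 5.09. It served as an alternative, and its normalization is not stated in the files. The log2 processed signal of 59305 non-control spots was quantile-normalized, which the study's methods name, spots flagged as outliers (119 to 172 per array) were set missing, and the spots of a probe were averaged. limma 3.58.1 (R 4.3.3) was fitted to all 6 arrays (3 residual and 1.05 prior degrees of freedom), with Benjamini-Hochberg adjustment over all probes and a two-sided threshold of 0.05. The fit was tested on simulated data with the spread of these arrays, where it recovered the sizes of changes but did not call all changed probes. A gene was counted by the probe with the highest mean, and every probe of a receptor was reported. The p-values rest on the spread between the 2 arrays of a group, from independent experiments, pooled over the groups and moderated across probes. The main fit does not model deviations shared by arrays of the same replicate number. Named genes were all members, every pathway gene called in LPS+USP7i against LPS and those called in LPS against untreated, each up to 4 per list by size, the nearest genes by distance and fixed markers. Of the fixed markers, 2 were left out of the lists and sums for a reason unrelated to their values. Ly96, Unc93b1, Sarm1, Irak1 and the genes in which the fit with the block differs (Cnpy3, Traf6, Cd36) were named after their values were seen. The members and lists were chosen with earlier results of these data known. Upstream sequences and gene order are from RefSeq (GRCm38.p6). Alternatives were 75th percentile scaling, normexp with an offset of 50, the deposited table, a filter on dim probes, outlier spots kept, a trended prior, a fit of 2 groups, a replicate block, each array left out, all probes of a gene averaged, and a log2 difference of at least 1. In each comparison the fits without an array of the third group equal the fit of 2 groups. The alternatives counted for a probe are therefore not all separate checks.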

Additional observations from a re-analysis of the deposited data

How the results depend on the processing

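Among single receptor differences refitted under each alternative, 364 kept direction and side of the threshold, 20 gained the call, 13 changed sign and the others lost the call. Those 13 were never called. Tlr9, LPS+USP7i minus LPS, was -0.0062 with 75th percentile scaling, -0.0019 with normexp and -0.017 on the deposited table. With an array left out, Tlr9 ranged from -0.21 to 0.23 there, from -0.43 to 0.14 for LPS minus untreated and from -0.42 to 0.15 for LPS+USP7i minus untreated. LPS minus untreated ranged from -0.072 to 0.13 for Tlr7 A_55_P2050932, from -0.096 to 0.13 for A_55_P2129047 and from -0.38 to 0.43 for Tlr8 A_55_P1996266; the 2 Tlr7 probes gave 0.45 and 0.43 with 75th percentile scaling. Receptors called, leaving out arrays, ranged from 2 to 6 for LPS minus untreated (main 7), from 0 to 3 for LPS+USP7i minus LPS (main 6) and from 1 to 2 for LPS+USP7i minus untreated (main 3). LPS+USP7i minus LPS had 0 in the fit of 2 groups (limma, 8 at an unadjusted p under 0.05), 3 with a log2 difference of at least 1 and 2 (Tlr8, Tlr13) with the replicate block. The same comparison had 4 on the deposited table, 8 with normexp (adding Tlr4 and Tlr6) and 7 with dim probes left out (adding Tlr6). With the block the other comparisons had 5 (without Tlr4 and Tlr8) and 2 (without Tlr7), and pathway calls were 11 higher and 6 lower for LPS minus untreated (without Ticam2 and Traf3, with Cnpy3 and Traf6) and 3 and 3 for LPS+USP7i minus LPS (without Myd88, Irak2, Tab2 and Irak3, with Cd36). Arrays of 1 number deviated together (r = 0.47, 0.40 and 0.42 across 20721 probes), but the labels do not say that a number marks a shared experiment, and the number coincides with the slide column. Pathway genes called ranged from 8 to 15 (main 17) and from 0 to 6 (main 9) with arrays left out, were 11 on the deposited table and 10 with a log2 difference of at least 1 for LPS minus untreated, and 0 (16 unadjusted) in the fit of 2 groups for LPS+USP7i minus LPS. The causes of these changes were not tested. Tlr5 and 1 probe of Tlr4 were limited by signal at background.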
